A study of Phyllostachys violascens with 18 samples.

Results

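The change from immature to mature leaves was followed in the bamboo variant Phyllostachys violascens ‘Flavistriatus’, as the 3 variant mature libraries against the 3 variant immature libraries, which are 6 of the 18 libraries of the series. The libraries were chosen by plant type and leaf stage as the sample titles give them. All genes with enough counts entered the comparison, which are 37595 of the 42520 genes in the deposited table. The series measured polyadenylated RNA in young, immature and mature leaves of this variant and of the typical Phyllostachys violascens, with 3 libraries in each of 6 groups, and was set up around leaf colour. Variant mature and variant immature leaves thus share the plant type and greenhouse growth and differ in the labelled stage. The labels give no age in days, no day of sampling and no colour of the sampled part. Whether the 3 libraries of a stage stem from different plants is not stated. The p-values therefore measure the spread between libraries within groups, estimated over all 18 libraries, and that spread may be technical. Groups follow the titles, which say leaf, although culms is the entry for tissue. The genes of the light-harvesting antenna summed to between 1959.8 and 11999.5 FPKM in the 6 libraries. No library titled as culm was there to compare, so these levels do not tell leaf from culm.

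A grass leaf grows from its base. Its cells divide, enlarge and thicken their walls while they build ribosomes at a high rate, and later turn from a sink that imports sugar into a source that exports it. In the plastid the same period brings antenna proteins, which hold chlorophyll, and the enzymes of carbon fixation, and late in leaf life proteases and autophagy return nitrogen and minerals to the plant.

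Total counts lay between 30268130 and 41204476 in variant mature and between 37003670 and 40441945 in variant immature libraries. Variant mature 3 stood apart from its group before any test. A principal component analysis of the 6 libraries put 48.99% of the variance on an axis that separated the stages and 26.1% on a second axis, along which mature 1, 2 and 3 lay at -70.1, -133 and 176.1. The immature libraries lay together there, at 8.08 to 10.8. Chi-square statistics between pairs of libraries averaged 49.7 per gene for mature 1 and 2, 203 for mature 1 and 3 and 268 for mature 2 and 3, against 11.3 to 12.2 among the immature libraries. Results are therefore given with and without mature 3. As the immature libraries lay so close together, results are also given with these 3 summed to 1 library, a setting chosen after the data were seen.

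Of the 37595 genes tested with edgeR's quasi-likelihood test, 10275 (27.3%) passed a Benjamini-Hochberg adjusted p of 0.05. Of these, 5924 genes (15.8%) rose in variant mature leaves and 4351 (11.6%) fell. On deposited FPKM (a level scaled for gene length and library size) with limma, the split turned the other way, with 5692 genes higher and 6836 lower. Without mature 3, 6543 genes rose and 5125 fell, and 5177 of the 5924 and 3659 of the 4351 were called again in their direction. With the immature libraries summed, 2197 genes were called, of which 1035 had been among the 5924 that rose and 1146 among the 4351 that fell. Counts of called genes per list are to be read against the shares over all genes, 15.8% that rose and 11.6% that fell. The median log2 fold change over all tested genes was 0.04. Log2 fold changes carry an approximate standard error, computed as the size of the change over the square root of the test's F statistic. The median given for a list is that of the log2 fold changes of its tested genes. Levels of the 3 mature and 3 immature libraries did not overlap for 16054 genes, or 42.7% of those tested, on counts scaled for library size by TMM, the trimmed mean of M values.

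**Figure D1:**
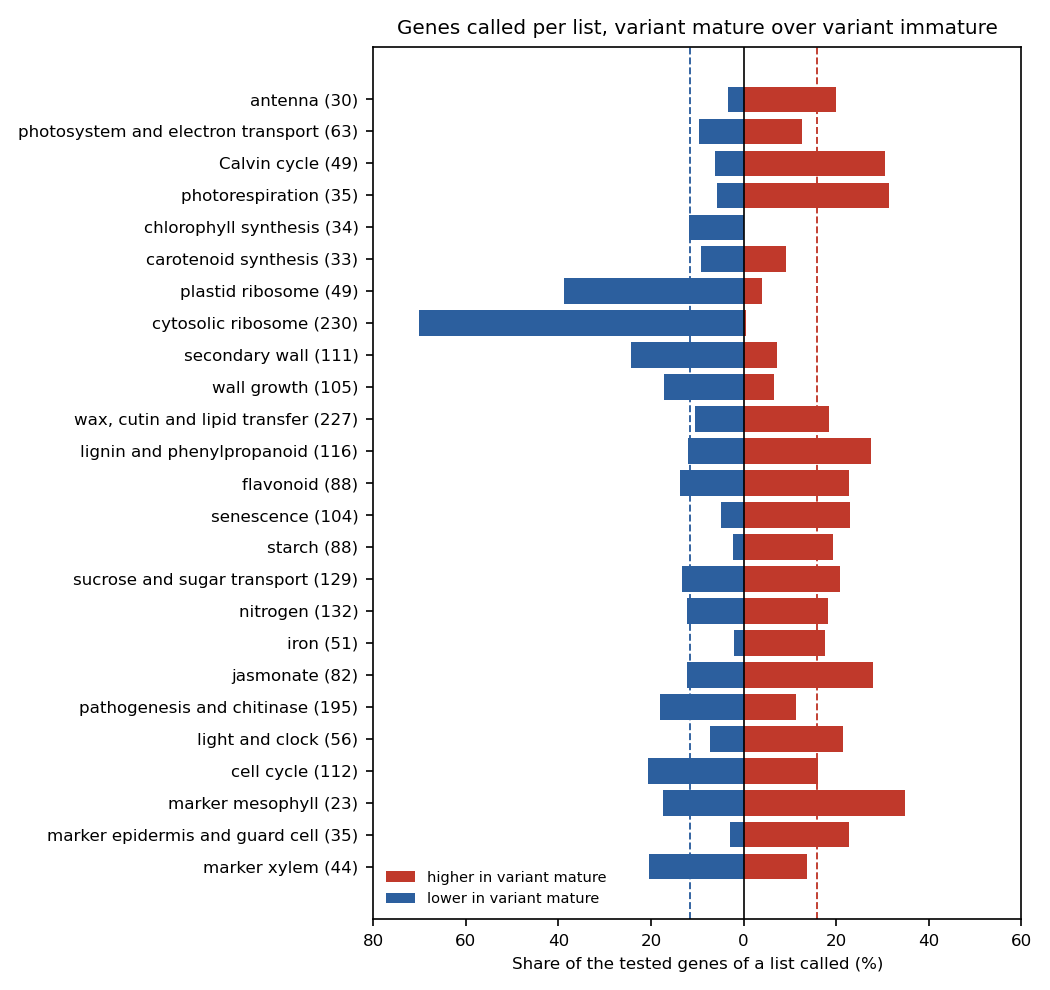
Share of the tested genes of each list (number in brackets) that passed an adjusted p of 0.05, in percent, with genes higher in variant mature leaves to the right and genes lower to the left of zero. Dashed lines mark the shares over all genes, 15.8% higher and 11.6% lower. Cytosolic ribosomal proteins have the longest bar to the left, with 161 of 230 genes.

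Genes for the protein parts of the cytosolic ribosome, the machine that makes most of the cell's proteins, were lower in variant mature leaves. Of 230 tested genes 161 fell and 1 rose, against 11.6% and 15.8% of all genes, and the median log2 fold change was -0.70. The whole list summed to 11613, 11247 and 15325 FPKM in mature 1, 2 and 3, against 21636 to 21904 FPKM in immature libraries. Mature 3 was the highest of the mature libraries here, and all 3 lay below every immature library. Without mature 1, 2 and 3 in turn, 132, 133 and 178 genes fell, and 81 fell with the immature libraries summed. Among the most abundant called genes was 40S ribosomal protein S18 (PH02Gene11873), with 212, 183 and 263 FPKM in mature and 433, 441 and 435 FPKM in immature libraries (log2 fold change -0.95 ± 0.16, adjusted p = 0.00078). The most abundant member that was not called was 60S ribosomal protein L5-1 (PH02Gene29817), at 216, 219 and 306 FPKM in mature and 365, 341 and 374 FPKM in immature libraries (log2 fold change -0.50 ± 0.18, adjusted p = 0.052). Its groups did not overlap, and without mature 3 it passed the test, at -0.66 with an adjusted p of 0.012.

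Translation initiation factor 2 subunit beta (PH02Gene43891), part of the complex that brings the first transfer RNA to the ribosome, fell to 11.5, 13.5 and 15.2 FPKM in mature libraries, against 42.1, 43.3 and 43.1 FPKM in immature libraries (log2 fold change -1.63 ± 0.13, adjusted p = 6.3e-06). Prohibitin-1 (PH02Gene08343), a scaffold protein of the inner mitochondrial membrane, fell to 23.6, 30.5 and 23.4 FPKM, against 73.2, 82.1 and 77.3 FPKM (log2 fold change -1.53 ± 0.12, adjusted p = 4.9e-06). Both groups of 3 were tight in each gene. Both kept the call without any single library and with the immature libraries summed.

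Ribosomal proteins of the plastid, which serve the chloroplast's own genes, were also lower. Of 49 tested genes 19 (38.8%) fell and 2 (4.08%) rose, with a median of -0.68. Their sum was 2257, 2379 and 704 FPKM in mature 1, 2 and 3, against 3323 to 3351 FPKM in immature libraries. Mature 3 went much further down than the other two: the median difference of the list from the immature mean was -0.34, -0.36 and -2.24 log2 units in mature 1, 2 and 3. Without mature 3, 17 genes fell. With mature 1 left out 19 fell, and with mature 2 left out 21. With immature 1, 2 and 3 left out in turn the counts were 11, 9 and 11, and with these libraries summed 1. 50S ribosomal protein L9 (PH02Gene10907) had 77.1, 88.3 and 44.1 FPKM in mature and 185, 186 and 184 FPKM in immature libraries (log2 fold change -1.35 ± 0.29, adjusted p = 0.0036). Against the direction of its list, 50S ribosomal protein L1 (PH02Gene16107) had 154, 174 and 74.1 FPKM in mature and 31.4, 29 and 29.3 FPKM in immature libraries (log2 fold change 2.22 ± 0.29, adjusted p = 0.00013). It is 1 of the 2 that rose, and its groups do not overlap. With the immature libraries summed, L1 stayed called and L9 did not.

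**Figure D2:**
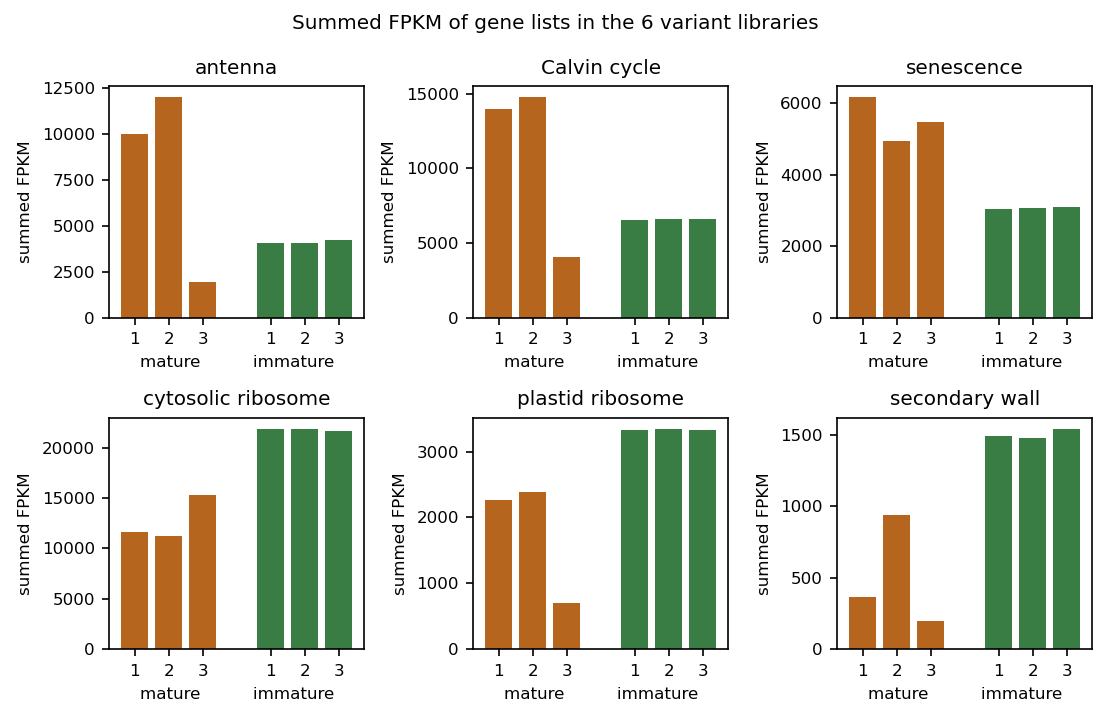
Summed FPKM of 6 gene lists (vertical axes from 0) in variant mature libraries 1 to 3 (brown) and variant immature libraries 1 to 3 (green). Antenna and Calvin cycle sums are high in mature 1 and 2 and lowest in mature 3, while ribosomal and secondary wall sums lie below the immature libraries in all 3 mature libraries, and senescence sums above them.

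Photosynthesis genes split the mature libraries. The antenna list, the chlorophyll-binding proteins of both photosystems, summed to 9983, 11999.5 and 1959.8 FPKM in mature 1, 2 and 3, against 4039 to 4226 FPKM in immature libraries. Mature 1 and 2 lay above and mature 3 below all immature libraries, and 25 of 30 tested genes followed that pattern against the immature mean. Over all 3 mature libraries 6 antenna genes (20%) rose and 1 (3.33%) fell, against 15.8% and 11.6% of all genes, with a median log2 fold change of 1.02. Without mature 3, 22 rose and 0 fell. With mature 1 left out 4 rose, and with mature 2 left out 2. With immature 1, 2 and 3 left out in turn 4, 3 and 5 rose, and with these libraries summed 0. A chlorophyll a/b binding protein gene (PH02Gene04237) rose to 1738, 2052 and 713 FPKM in mature libraries, against 541, 542 and 581 FPKM in immature libraries (log2 fold change 1.49 ± 0.32, adjusted p = 0.0036). In this gene mature 3 also lay above the immature libraries. Chlorophyll a-b binding protein 8 (PH02Gene45771) had 892, 1092 and 100.2 FPKM in mature and 182, 177 and 186 FPKM in immature libraries (log2 fold change 2.00 ± 0.55, adjusted p = 0.014). There mature 3 lay below the immature libraries, and without mature 2 the gene was no longer called, at 1.5 with an adjusted p of 0.062. Nor was it called when only the 6 variant libraries were fitted, at an adjusted p of 0.11. The most abundant antenna gene that was not called, LHCII type 1 (PH02Gene45538), had 1158, 1202 and 331 FPKM in mature and 948, 945 and 956 FPKM in immature libraries (log2 fold change -0.02 ± 0.48, adjusted p = 1.00). The antenna gene that fell, photosystem I chlorophyll a/b-binding protein 6 (PH02Gene03052), had 35.8, 33.6 and 13 FPKM in mature and 76.7, 78.3 and 82.6 FPKM in immature libraries (log2 fold change -1.47 ± 0.45, adjusted p = 0.025). Its call did not hold without mature 3, at -1.13 with an adjusted p of 0.067, nor without immature 1, 2 or 3, at adjusted p values up to 0.059.

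Among 63 photosystem and electron transport genes 8 (12.7%) rose and 6 (9.52%) fell (median 0.24), both under the shares over all genes. With mature 3 left out 30 rose and 5 fell, and with mature 2 left out 5 rose and 6 fell. Summing the immature libraries left 3 that rose and 3 that fell. Among the 10 largest rises of described genes that reached 10 FPKM, had counts in every library and did not overlap between groups were 2 genes for photosystem II 10 kDa polypeptide, a small protein near the oxygen-evolving complex. One (PH02Gene08265) had 1595, 1565 and 348 FPKM in mature and 20.1, 16.3 and 17.8 FPKM in immature libraries (log2 fold change 6.07 ± 0.51, adjusted p = 8.4e-06). The other (PH02Gene09620) had 311, 324 and 64.9 FPKM in mature and 0.224, 1.35 and 0.882 FPKM in immature libraries (log2 fold change 8.18 ± 0.71, adjusted p = 9.2e-06). Mature 3 was far below mature 1 and 2 in both, and groups that do not overlap were a condition for their choice. The counting may share reads between genes of 1 description, so the value of each gene alone is uncertain. The kinase STN7 (PH02Gene01452), which phosphorylates antenna proteins to balance the photosystems, rose to 162, 164 and 105 FPKM, against 27.8, 30.5 and 26.9 FPKM in immature libraries (log2 fold change 2.39 ± 0.21, adjusted p = 9.2e-06).

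Enzymes of carbon fixation rose more often than they fell. Of 49 Calvin cycle genes 15 (30.6%) rose and 3 (6.12%) fell (median 0.74), against 15.8% and 11.6% of all genes. Without mature 3, 24 rose and 2 fell, and without mature 2, 8 rose and 3 fell. With immature 2 left out 9 rose, with immature 3 left out 8, and with the immature libraries summed 3. The list summed to 13998, 14772 and 4056 FPKM in mature 1, 2 and 3, against 6569 to 6604 FPKM in immature libraries, so that mature 3 lay lowest of the 6. Chloroplast fructose-bisphosphate aldolase (PH02Gene46367) rose to 559, 706 and 98.6 FPKM, against 52.5, 50.8 and 48.1 FPKM in immature libraries (log2 fold change 3.23 ± 0.53, adjusted p = 0.00063). Rubisco activase large subunit (PH02Gene51123), which keeps rubisco in its active form, had 126, 202 and 17.5 FPKM in mature and 2.52, 3.02 and 2.67 FPKM in immature libraries (log2 fold change 5.45 ± 0.84, adjusted p = 0.00037). All 3 mature libraries lay above the immature ones in both genes. The rubisco small subunit gene with the highest mean level in mature leaves (PH02Gene30282) was not called, with 5693, 5722 and 739.8 FPKM in mature and 1678, 1648 and 1679 FPKM in immature libraries (log2 fold change 1.34 ± 0.54, adjusted p = 0.079). Without mature 3 its log2 fold change was 1.84 with an adjusted p of 0.00065. Another small subunit gene, PH02Gene30287, was above it in every immature library. It had 2428, 2406 and 815 FPKM in mature and 1968, 2003 and 1974 FPKM in immature libraries (log2 fold change -0.02 ± 0.37, adjusted p = 1.00), and it was chosen after its values were seen. A further small subunit gene (PH02Gene44479) was called, with 999.6, 1156 and 318 FPKM in mature and 374, 387 and 372 FPKM in immature libraries (log2 fold change 1.18 ± 0.37, adjusted p = 0.027). Its groups overlapped, and among the settings without 1 library it stayed called only when mature 3 was the one left out.

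Photorespiration, which salvages the by-product of rubisco's reaction with oxygen, had 11 genes that rose and 2 that fell of 35, with a median of 0.41. Leaving out mature 2 gave 6 and 3, and summing the immature libraries 2 and 0. Glutamate-glyoxylate aminotransferase 2-like (PH02Gene45921) rose to 341, 359.7 and 246 FPKM in mature libraries, against 121, 117 and 121 FPKM in immature libraries (log2 fold change 1.44 ± 0.25, adjusted p = 0.00096). Plastidic glutamine synthetase (PH02Gene00428), which recaptures the ammonia that photorespiration sets free, rose to 194, 233 and 93.1 FPKM, against 57.5, 57 and 64.4 FPKM (log2 fold change 1.59 ± 0.32, adjusted p = 0.0021). Chloroplast carbonic anhydrase (PH02Gene30528), on the list of mesophyll markers, rose to 992, 1062 and 367 FPKM, against 254, 258 and 247 FPKM (log2 fold change 1.73 ± 0.37, adjusted p = 0.0035). In these genes mature 3 was the lowest mature library and still above the immature ones. None of the 3 stayed called with the immature libraries summed.

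**Figure D3:**
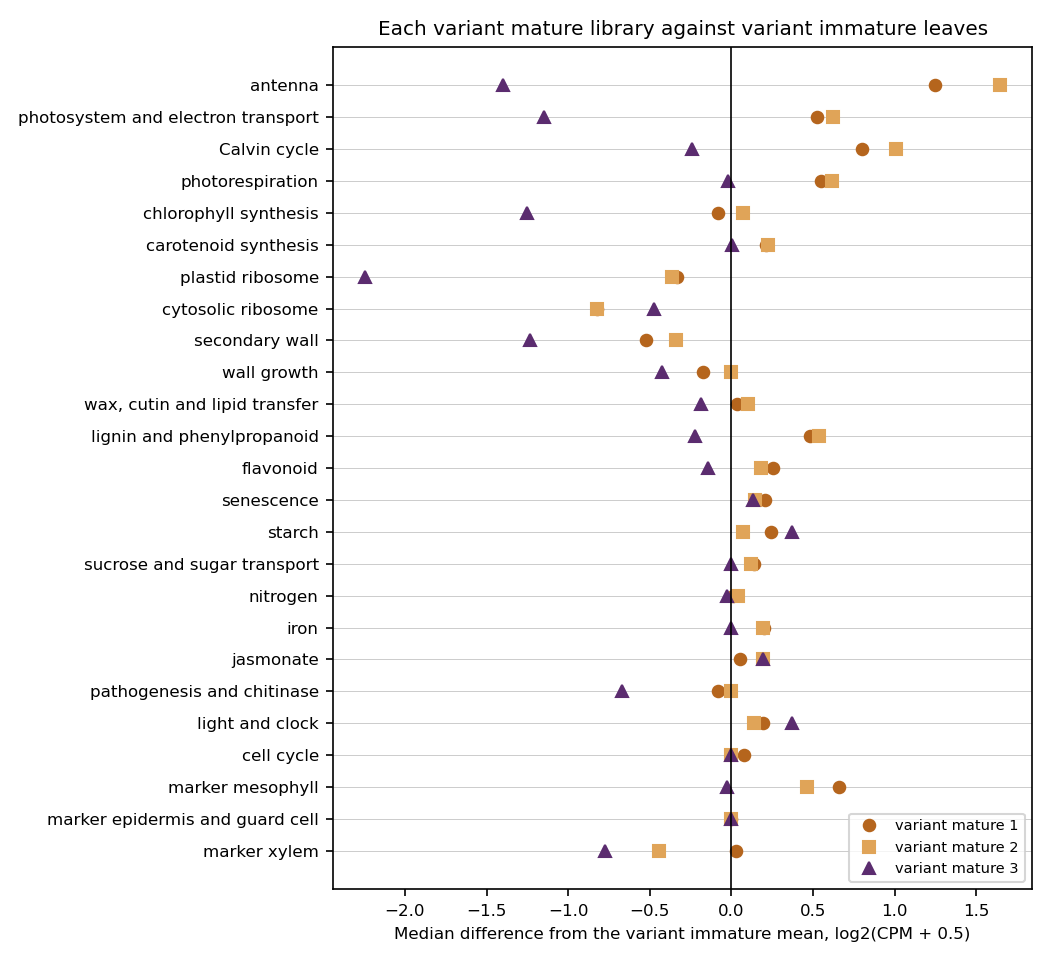
Median difference of each gene list from the mean of the variant immature libraries, on log2(CPM + 0.5), with CPM the counts scaled for library size, for variant mature 1 (circles), 2 (squares) and 3 (triangles). For the antenna list mature 1 and 2 lie at 1.24 and 1.65 and mature 3 at -1.40, while the 3 libraries lie close together for senescence and sugar lists.

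In the pathway that makes chlorophyll few genes were called. Of 34 chlorophyll synthesis genes 0 rose and 4 fell, with a median of -0.18, and without mature 3, 5 rose and 4 fell. Leaving out mature 2 gave 7 that fell, and summing the immature libraries gave 1. The median difference of the list was -0.08, 0.07 and -1.25 log2 units in mature 1, 2 and 3. The enzyme that turns chlorophyll a into b, chlorophyllide a oxygenase (PH02Gene06841), had 39.7, 38.7 and 37.7 FPKM in mature and 41.5, 42.8 and 41.6 FPKM in immature libraries (log2 fold change -0.07 ± 0.15, adjusted p = 0.76). Chlorophyll synthase (PH02Gene40974), the last step, had 75.4, 79.8 and 36.5 FPKM in mature and 97.5, 103 and 100.02 FPKM in immature libraries (log2 fold change -0.60 ± 0.26, adjusted p = 0.10). Neither passed the test, and in the synthase mature 3 lay far below mature 1 and 2. The most abundant gene for magnesium chelatase subunit H (PH02Gene25454), at the entry to the chlorophyll branch, had 81.5, 105 and 19.5 FPKM in mature and 48, 49.2 and 50.9 FPKM in immature libraries (log2 fold change 0.54 ± 0.45, adjusted p = 0.40). Its mature libraries lay on both sides of the immature ones, and without mature 3 it was called, at 0.98 with an adjusted p of 0.023. Glutamyl-tRNA reductase 2 (PH02Gene41172), the enzyme that commits glutamate to the pathway, had a like pattern, with 55.5, 74.6 and 14.3 FPKM in mature and 24.1, 28 and 24.2 FPKM in immature libraries (log2 fold change 0.98 ± 0.40, adjusted p = 0.083), and 1.42 with an adjusted p of 0.00040 without mature 3. Another gene of that name (PH02Gene14878) had 35.8, 47.5 and 24 FPKM in mature and 40.7, 39 and 40.5 FPKM in immature libraries. It was not called, at -0.11 ± 0.24 with an adjusted p of 0.78, nor without mature 3, at 0.12 with an adjusted p of 0.70. The binding protein of that reductase (PH02Gene38710), which anchors it to the membrane, fell to 7.26, 9.04 and 3.68 FPKM in mature libraries, against 21.2, 21.9 and 20.7 FPKM in immature libraries (log2 fold change -1.62 ± 0.28, adjusted p = 0.00083).

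Chlorophyll breakdown genes went both ways, with 4 that rose and 4 that fell of 15 and a median of 0.28. Over the settings without 1 library 1 to 5 rose and 2 to 4 fell. STAY-GREEN LIKE (PH02Gene39882), a relative of the protein that starts chlorophyll dismantling, fell to 20.4, 17.9 and 10.5 FPKM in mature libraries, against 52, 63.7 and 54.1 FPKM in immature libraries (log2 fold change -1.74 ± 0.22, adjusted p = 0.00011). Pheophorbide a oxygenase (PH02Gene11023), which opens the chlorophyll ring, rose to 13.8, 12.1 and 10.5 FPKM, against 8.2, 7.88 and 7.89 FPKM (log2 fold change 0.65 ± 0.17, adjusted p = 0.012), and without mature 1 it was at 0.55 with an adjusted p of 0.054. Red chlorophyll catabolite reductase (PH02Gene27203), the next step, had 7.61, 1.1 and 42.8 FPKM in mature and 16.1, 18.8 and 17.7 FPKM in immature libraries (log2 fold change -0.02 ± 0.95, adjusted p = 1.00). Its 3 mature libraries spread from below to above the immature ones. Another gene of that name (PH02Gene27204) rose to 8.52, 8.76 and 4.94 FPKM, against 3.49, 3.66 and 4.56 FPKM (log2 fold change 0.97 ± 0.27, adjusted p = 0.017). Its groups did not overlap, but the call did not hold without mature 1 or mature 2, at adjusted p values of 0.061 and 0.060.

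Of 33 carotenoid synthesis genes 3 rose and 3 fell (median 0.12), and without mature 3, 7 rose and 6 fell. Zeaxanthin epoxidase (PH02Gene42507), an enzyme of the xanthophyll cycle, rose to 40, 46.3 and 27.7 FPKM in mature libraries, against 15.3, 16.9 and 14.5 FPKM in immature libraries (log2 fold change 1.34 ± 0.24, adjusted p = 0.0012). 15-cis-zeta-carotene isomerase (PH02Gene45013), an earlier step, fell to 19, 17 and 16.3 FPKM, against 37, 32.9 and 40.1 FPKM (log2 fold change -1.02 ± 0.18, adjusted p = 0.00082). Phytoene synthase 2 (PH02Gene18044), at the entry to the pathway, fell to 32.5, 21.2 and 46.9 FPKM, against 91.1, 95.2 and 88.5 FPKM (log2 fold change -1.42 ± 0.42, adjusted p = 0.023). In all 3 genes the groups lay apart, but the synthase was not called without mature 1, mature 2, immature 1 or immature 2, at adjusted p values up to 0.079. No other gene of these enzymes was called. The more abundant epoxidase PH02Gene02171 changed by 0.33 ± 0.22 log2 units (adjusted p = 0.28). Phytoene synthases PH02Gene19716 and PH02Gene29430 changed by 0.51 ± 0.39 and 0.50 ± 0.44 (adjusted p = 0.35 and 0.42). Without mature 3 PH02Gene29430 was at 0.97 with an adjusted p of 0.0087. Synthase genes of lower level lay between -0.67 and 0.41. The smallest p among described genes that reached 10 FPKM and did not overlap belonged to a gene named zeaxanthin 7,8-cleavage dioxygenase (PH02Gene22046), after an enzyme described in saffron crocus. It had 63.8, 54.6 and 49.9 FPKM in mature and 2.94, 4.27 and 3.69 FPKM in immature libraries (log2 fold change 3.99 ± 0.24, adjusted p = 1.2e-06). The mature libraries were tight here, mature 3 included, and the call held without any single library and with the immature libraries summed.

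Among 23 regulators of the plastid 8 rose and 4 fell (median 0.25). With immature 3 left out 4 rose, with immature 1 or mature 2 left out 5 rose, with immature 2 left out 2 fell, and with the immature libraries summed 0 rose and 0 fell. GLK1, a transcription factor that switches on antenna and chlorophyll genes, was present as 2 genes. One (PH02Gene18738) had 13.6, 15.8 and 10.3 FPKM in mature and 6.84, 7.07 and 7.09 FPKM in immature libraries (log2 fold change 0.97 ± 0.34, adjusted p = 0.047), and it was not called without mature 1, mature 2 or any single immature library, at adjusted p values up to 0.13. The other (PH02Gene22330) had 5.64, 7.8 and 3.81 FPKM in mature and 7.05, 5.23 and 6.21 FPKM in immature libraries (log2 fold change -0.05 ± 0.26, adjusted p = 0.94).

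Cell wall genes fell more often than they rose, with a wide spread between mature libraries. Of 111 secondary wall genes, for cellulose, xylan and lignin of thickened walls, 27 (24.3%) fell and 8 (7.21%) rose. The median log2 fold change was -0.73, and -0.86 with genes without counts in a group set to the bound of 3 counts over the group. The list summed to 365, 938 and 197 FPKM in mature 1, 2 and 3, against 1475 to 1544 FPKM in immature libraries. Here mature 2 kept the highest and mature 3 the lowest level of the mature libraries. Without mature 1, 2 and 3 in turn 13, 43 and 29 genes fell, without immature 1, 2 and 3 it was 19, 18 and 17, and with the immature libraries summed 3. Markers of xylem, whose vessels have such walls, are nearly all in this list, with which they share 43 of 44 tested genes. They summed to 118, 88.2 and 71.1 FPKM in mature 1, 2 and 3, against 151 to 156 FPKM in immature libraries. Of the 44 tested 6 rose and 9 fell (median -0.26), and 22, 17 and 8 lay above the immature mean in mature 1, 2 and 3. Altogether 21 of the 51 listed were at 0 in mature 3, against 12 to 14 in immature libraries. Fewer cells of a type and less RNA per cell cannot be told apart in such samples, and the part of cell makeup in the wall genes was not tested.

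COBRA-like protein 3 (PH02Gene21702), of a family that orders cellulose, had 12.3, 97.5 and 7.21 FPKM in mature and 159, 164 and 167 FPKM in immature libraries (log2 fold change -2.00 ± 0.65, adjusted p = 0.033). Fasciclin-like arabinogalactan protein 13 (PH02Gene04257), a wall glycoprotein, had 5.68, 35 and 0.478 FPKM in mature and 89.6, 89.2 and 97.1 FPKM in immature libraries (log2 fold change -2.66 ± 0.80, adjusted p = 0.023). A relative, fasciclin-like arabinogalactan protein 1 (PH02Gene18743), was not called, with 3.12, 68.8 and 1.16 FPKM in mature and 151, 149 and 150.1 FPKM in immature libraries (log2 fold change -2.55 ± 0.94, adjusted p = 0.056). In all 3 genes the highest mature library was mature 2, and every mature library lay below the immature ones. Without mature 2 the log2 fold changes were -4.03 with an adjusted p of 5.6e-06, -4.82 with an adjusted p of 0.00022 and -6.08 with an adjusted p of 6.2e-06. COBRA-like protein 3 was not called without mature 1 or any single immature library, at adjusted p values up to 0.11, and fasciclin-like arabinogalactan protein 13 not without mature 1 or immature 3, at up to 0.086. Laccase-20-like (PH02Gene45391), of a family that joins lignin units, fell to 10.8, 19.3 and 13.9 FPKM in mature libraries, against 44.9, 44.3 and 49.96 FPKM in immature libraries (log2 fold change -1.61 ± 0.24, adjusted p = 0.00029), and kept the call in each of these settings.

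Of 105 genes for loosening and extending young walls 7 rose and 18 fell (median -0.23). The list summed to 196, 726 and 167 FPKM in mature 1, 2 and 3, against 746 to 766 FPKM in immature libraries, so that mature 2 lay close to the immature level. Over the settings without 1 library 3 to 10 rose and 11 to 25 fell. Without mature 1, 6 rose and 11 fell, without immature 1, 5 rose and 12 fell, and with the immature libraries summed 3 rose and 8 fell. Expansin-like A1 (PH02Gene00824) fell to 31.4, 33.4 and 42.1 FPKM in mature libraries, against 87.4, 91.3 and 86.5 FPKM in immature libraries (log2 fold change -1.27 ± 0.30, adjusted p = 0.0066). Xyloglucan endotransglycosylase/hydrolase protein 8-like (PH02Gene31368), which cuts and rejoins xyloglucan, had 12.3, 114 and 1.8 FPKM in mature and 159, 162 and 165 FPKM in immature libraries (log2 fold change -1.85 ± 0.94, adjusted p = 0.15). Mature 2 again stood close to the immature level, and without it the value was -4.47 with an adjusted p of 0.0018. Beta-galactosidase 6 (PH02Gene32564), of a family that trims galactose from wall polymers, fell to 3.27, 3.61 and 4.17 FPKM in mature libraries, against 18.5, 21.5 and 18.8 FPKM in immature libraries (log2 fold change -2.37 ± 0.18, adjusted p = 4.9e-06), in every setting tried.

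The lignin and phenylpropanoid list, enzymes that make lignin units and other phenolics, had 32 genes that rose and 14 that fell of 116 (median 0.38). The list summed to 2093, 2469 and 1634 FPKM in mature 1, 2 and 3, against 2224 to 2323 FPKM in immature libraries. With the immature libraries summed 5 rose and 5 fell, and with mature 1 left out 9 fell. Cinnamoyl-CoA reductase 1 (PH02Gene01704), the first step specific to lignin, rose to 99.4, 83.8 and 109.8 FPKM in mature libraries, against 54.7, 49.9 and 50.9 FPKM in immature libraries (log2 fold change 0.96 ± 0.17, adjusted p = 0.0012). Phenylalanine ammonia-lyase (PH02Gene30511), the entry step, fell to 6.43, 21.4 and 6.57 FPKM, against 124, 130.0 and 125 FPKM (log2 fold change -3.40 ± 0.55, adjusted p = 0.00056). Of 88 flavonoid genes 20 rose and 12 fell (median 0.25), and with the immature libraries summed 4 rose and 5 fell. Anthocyanidin reductase (PH02Gene32095), on the branch to condensed tannins, rose to 134, 106 and 90.9 FPKM, against 20.5, 21.1 and 21.2 FPKM (log2 fold change 2.44 ± 0.21, adjusted p = 9.4e-06). Its groups lay far apart.

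The list for wax, cutin and lipid transfer, which make and carry the leaf's surface lipids, held 227 tested genes. Of these 42 (18.5%) rose and 24 (10.6%) fell (median 0.10), near the shares over all genes. Without immature 1, 2 and 3 in turn 26, 28 and 29 rose, and with these libraries summed 8 rose and 9 fell. 3-ketoacyl-CoA synthase 10 (PH02Gene05497), which lengthens fatty acids for wax and cutin, rose to 154, 134 and 60.4 FPKM in mature libraries, against 31.5, 33.1 and 34 FPKM in immature libraries (log2 fold change 1.87 ± 0.28, adjusted p = 0.00028). A GDSL esterase/lipase (PH02Gene08251), of a family with cutin enzymes among its members, fell to 5.61, 10.2 and 6.52 FPKM, against 81.7, 84 and 78.2 FPKM (log2 fold change -3.40 ± 0.24, adjusted p = 3.4e-06). It had the smallest p of the genes that fell under the same conditions. Non-specific lipid-transfer protein 1-like (PH02Gene35874) had 27.3, 273 and 7.33 FPKM in mature and 1208, 1186 and 1264 FPKM in immature libraries (log2 fold change -3.50 ± 0.98, adjusted p = 0.016). Mature 2 was again the highest mature library, the log2 fold change without it was -6.09 with an adjusted p of 0.00031, and the call was lost without mature 1, at -3.04 with an adjusted p of 0.060.

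Genes for protein breakdown rose more often than they fell. The senescence list holds cysteine proteinases, vacuolar processing enzymes, autophagy proteins and genes named for leaf senescence. Of its 104 tested genes 24 (23.1%) rose and 5 (4.81%) fell (median 0.26), against 15.8% and 11.6% of all genes. The list summed to 6169, 4929 and 5459.8 FPKM in mature 1, 2 and 3, against 3036 to 3082 FPKM in immature libraries, and mature 3 lay between the others. Over the settings without 1 library 17 to 23 rose and 1 to 11 fell, the 11 without mature 3, and with the immature libraries summed 6 rose and 0 fell. Cysteine proteinase 2 (PH02Gene03034), a protease, rose to 1508, 1251 and 1506 FPKM in mature libraries, against 298, 295 and 311 FPKM in immature libraries (log2 fold change 2.28 ± 0.17, adjusted p = 4.9e-06). A cathepsin B-like protease (PH02Gene45744) rose to 136, 143 and 207 FPKM, against 41.8, 42.6 and 40.2 FPKM (log2 fold change 2.00 ± 0.14, adjusted p = 3.4e-06). Both calls held in every setting tried, and groups that do not overlap were a condition for the choice of these genes. SENESCENCE-ASSOCIATED GENE 21 (PH02Gene40131), a stress-induced mitochondrial protein in Arabidopsis, rose to 683, 712 and 410.0 FPKM, against 320.5, 329.7 and 340.0 FPKM (log2 fold change 0.92 ± 0.21, adjusted p = 0.0051). NAC domain-containing protein 41 (PH02Gene19621), a transcription factor, rose to 78.5, 77.1 and 178 FPKM, against 28.1, 28.7 and 30.1 FPKM (log2 fold change 1.97 ± 0.28, adjusted p = 0.00022), highest in mature 3.

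**Figure D4:**
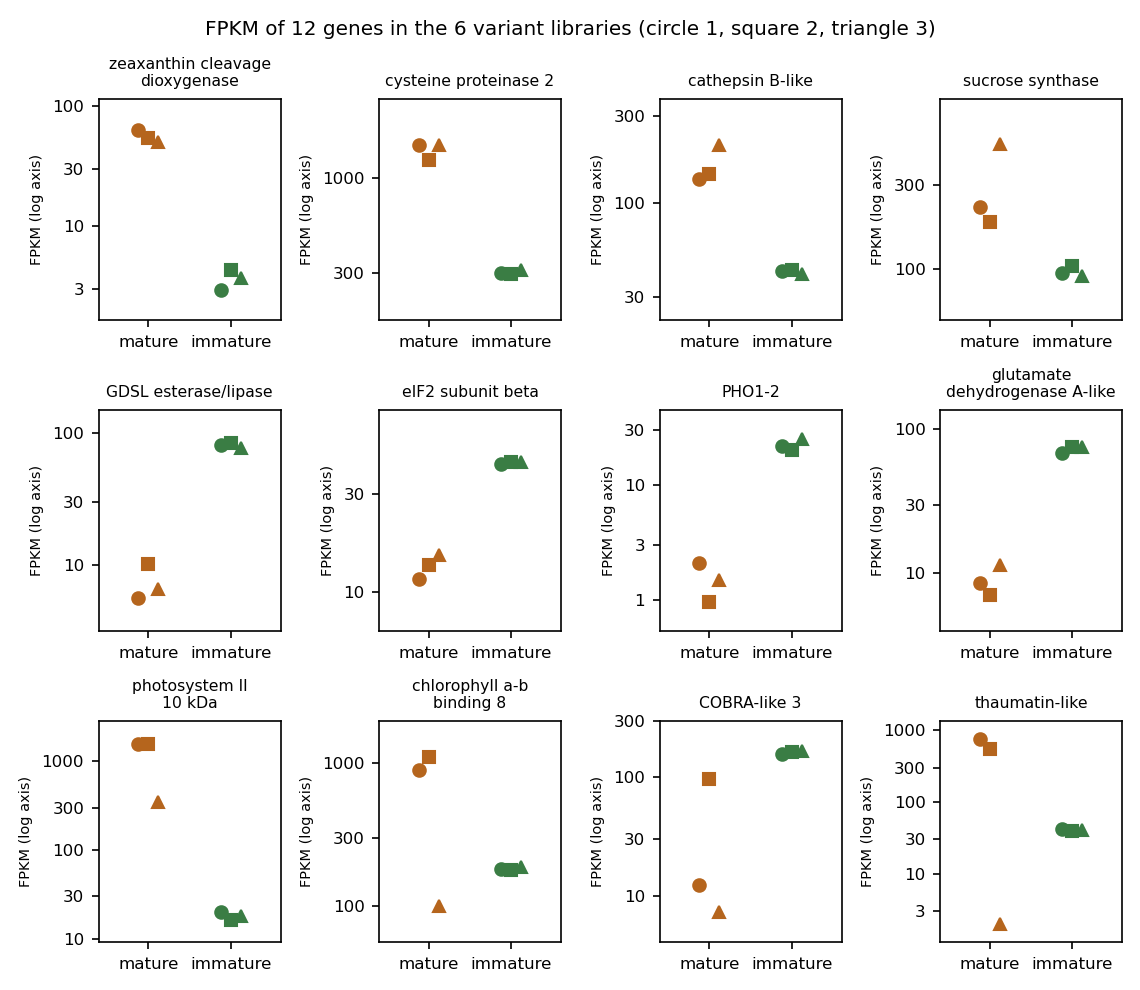
FPKM (log axes) of 12 genes in variant mature (left, brown) and variant immature libraries (right, green), with circles, squares and triangles for libraries 1, 2 and 3. The upper 2 rows hold genes whose groups do not overlap, and the bottom row genes in which 1 mature library departs from the other 2, such as thaumatin-like protein with 743, 544 and 1.98 FPKM in mature 1, 2 and 3.

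Further genes with the smallest p had varied roles. A vacuolar cationic amino acid transporter 2-like gene (PH02Gene18056) rose to 18, 19.3 and 15 FPKM in mature libraries, against 7.35, 6.45 and 6.55 FPKM in immature libraries (log2 fold change 1.41 ± 0.12, adjusted p = 9.2e-06). Nucleotide pyrophosphatase/phosphodiesterase (PH02Gene45476), which splits nucleotides, rose to 128, 96.2 and 96.2 FPKM, against 8.84, 9.51 and 7.95 FPKM (log2 fold change 3.65 ± 0.28, adjusted p = 4.9e-06). Peroxisomal acetate/butyrate-CoA ligase AAE7-like (PH02Gene25928), which activates short acids for peroxisomal metabolism, rose to 16.2, 14.8 and 20.4 FPKM, against 2.69, 2.37 and 2.66 FPKM (log2 fold change 2.77 ± 0.22, adjusted p = 4.9e-06). These 3 genes are among the 10 described genes that rose with the smallest p. Among the 10 that fell with the smallest p, glutamate dehydrogenase A-like (PH02Gene27470), which links amino acids to the citrate cycle, had 8.55, 7.11 and 11.5 FPKM in mature and 68, 75.8 and 75.5 FPKM in immature libraries (log2 fold change -2.97 ± 0.24, adjusted p = 6.3e-06). Phosphate transporter PHO1-2 (PH02Gene33784), which loads phosphate into the xylem, had 2.09, 0.961 and 1.5 FPKM in mature and 22, 20.3 and 25.1 FPKM in immature libraries (log2 fold change -3.84 ± 0.30, adjusted p = 4.9e-06). The response regulator ORR1 (PH02Gene14808), a cytokinin-responsive regulator in rice, had 5.82, 5.15 and 6.26 FPKM in mature and 26.3, 28 and 19.6 FPKM in immature libraries (log2 fold change -2.06 ± 0.16, adjusted p = 4.9e-06). Groups that lie apart were a condition for choosing these 6 genes. Their calls held without any single library and with the immature libraries summed, which a choice by smallest p favours.

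Another pair of nitrogen genes was close to 0 in mature leaves. Asparagine synthetase (PH02Gene23545), which makes the amide that carries nitrogen between organs, had 0.50, 1.71 and 0.217 FPKM in mature and 19.1, 17.4 and 20.7 FPKM in immature libraries (log2 fold change -4.47 ± 0.79, adjusted p = 0.0010). A putative glutamine amidotransferase GAT1_2.1 (PH02Gene22198) had 0.176, 0.0952 and 0.46 FPKM in mature and 19.5, 15.6 and 18.5 FPKM in immature libraries (log2 fold change -6.17 ± 0.75, adjusted p = 7.8e-05), the largest fall among described genes that reached 10 FPKM, had counts in every library and did not overlap. Of 132 nitrogen genes as a whole 24 rose and 16 fell (median 0.02), and with the immature libraries summed 3 rose and 4 fell.

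Of 129 genes for sucrose and sugar transport 27 rose and 17 fell (median 0.19). Sucrose synthase (PH02Gene02657), which can split sucrose, rose to 225, 185 and 516 FPKM in mature libraries, against 94.8, 104 and 92 FPKM in immature libraries (log2 fold change 1.70 ± 0.34, adjusted p = 0.0022). The sugar transporter SWEET1b (PH02Gene15530) rose to 158, 132 and 196 FPKM, against 58.3, 54.7 and 58.6 FPKM (log2 fold change 1.54 ± 0.21, adjusted p = 0.00015), while SWEET2a (PH02Gene23178) fell to 11.2, 12.9 and 19.1 FPKM, against 27.4, 27.4 and 31.3 FPKM (log2 fold change -0.96 ± 0.22, adjusted p = 0.0061). All 3 genes had their highest mature value in mature 3, and their groups did not overlap. Of 88 starch genes 17 rose and 2 fell (median 0.34), among them an inactive beta-amylase 9 (PH02Gene10442) with 28.4, 28.5 and 36.2 FPKM in mature and 10.8, 12 and 12.5 FPKM in immature libraries (log2 fold change 1.44 ± 0.16, adjusted p = 4.7e-05). With the immature libraries summed 7 rose and 6 fell in the sugar list, and 4 rose and 0 fell in the starch list.

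Several defence genes differed widely among the mature libraries. Of 195 genes for pathogenesis-related proteins and chitinases 22 rose and 35 fell (median -0.16), without mature 3, 36 rose and 39 fell, and with the immature libraries summed 2 rose and 10 fell. A thaumatin-like protein (PH02Gene45602), of the PR-5 family, had 743, 544 and 1.98 FPKM in mature and 42, 39 and 40.9 FPKM in immature libraries (log2 fold change 3.46 ± 1.11, adjusted p = 0.031). Without mature 3 its log2 fold change was 4.05 with an adjusted p of 6.7e-05, and without any other of the 6 libraries it was not called, at adjusted p values up to 0.097. A Bowman-Birk type trypsin inhibitor (PH02Gene20224), which blocks digestive proteases, had 171, 418 and 2.23 FPKM in mature and 5.21, 5.15 and 4.16 FPKM in immature libraries (log2 fold change 5.41 ± 1.19, adjusted p = 0.0042). Both genes were far above the immature level in mature 1 and 2 and below it in mature 3. (E)-beta-caryophyllene synthase (PH02Gene17194), which makes a volatile sesquiterpene, had 97.8, 115 and 9.08 FPKM in mature and 0.186, 0.0877 and 0.568 FPKM in immature libraries (log2 fold change 8.02 ± 0.96, adjusted p = 7.4e-05). There mature 3 was lower than its partners and still above the immature libraries. Alpha-terpineol synthase (PH02Gene50114), for a volatile monoterpene, had 35.1, 66.2 and 0.384 FPKM in mature and 0.18, 0.149 and 0.213 FPKM in immature libraries (log2 fold change 7.59 ± 1.38, adjusted p = 0.0012). Its mature 3 value was only just above the immature libraries.

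Germin-like proteins, wall proteins of which several act as superoxide dismutases, were found at both ends of the comparison. Germin-like protein 3-5 (PH02Gene50866) rose to 55.5, 119 and 0.691 FPKM in mature libraries, against 0.37, 0.296 and 0.531 FPKM in immature libraries (log2 fold change 7.22 ± 1.44, adjusted p = 0.0023), with mature 3 next to the immature level, and it was not called with the immature libraries summed, at an adjusted p of 0.11. Germin-like protein 1-1 (PH02Gene38077) had 4.35, 9.06 and 10.6 FPKM in mature and 166, 177 and 171 FPKM in immature libraries (log2 fold change -4.38 ± 0.62, adjusted p = 0.00022). A further 4 genes, all named germin-like protein 12-2, were among the 10 largest falls under the conditions above. All 4 lie on the plus strand of scaffold 18, between 20042867 and 20130874 in the coordinates of the deposited table, whose genome build is not given in the sources used here. PH02Gene44986 had 0.205, 0.276 and 0.693 FPKM in mature and 11.7, 11.4 and 11.7 FPKM in immature libraries (log2 fold change -4.79 ± 0.63, adjusted p = 0.00079). PH02Gene44987 had 0.402, 0.312 and 1.0 FPKM in mature and 19.2, 22.3 and 20.7 FPKM in immature libraries (log2 fold change -5.13 ± 0.76, adjusted p = 0.00029). The neighbours PH02Gene20964 and PH02Gene49134 changed by -4.78 ± 0.68 and -4.70 ± 0.83 log2 units, with at most 0.743 FPKM in mature and at least 9.43 FPKM in immature libraries. Read estimates may be split between such close copies, so each of the 4 alone is uncertain. With the immature libraries summed 3 of the 4 stayed called, all but PH02Gene49134, at an adjusted p of 0.052.

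Of 82 jasmonate genes 23 rose and 10 fell (median 0.17), and with the immature libraries summed 4 rose and 1 fell. Lipoxygenase 2.3 (PH02Gene44707), of a chloroplast family that starts jasmonate synthesis, rose to 95.1, 128 and 17.8 FPKM in mature libraries, against 8.96, 9.39 and 9.79 FPKM in immature libraries (log2 fold change 3.16 ± 0.56, adjusted p = 0.0010). Of 51 iron genes 9 rose and 1 fell (median 0.49). With immature 3 left out 6 rose, with mature 3 left out 13 rose and 3 fell, with mature 1 or mature 2 left out 2 fell, and with the immature libraries summed 1 rose and 1 fell. Nicotianamine aminotransferase, which in grasses leads to the compounds that bind iron, changed both ways: PH02Gene37749 rose to 22.8, 18.4 and 6.55 FPKM, against 1.14, 0.688 and 0.865 FPKM (log2 fold change 4.20 ± 0.56, adjusted p = 0.00024). Its relative PH02Gene06386 fell to 0.969, 1.54 and 0.272 FPKM, against 20.7, 15.7 and 20.6 FPKM (log2 fold change -4.27 ± 0.60, adjusted p = 0.00030). The gene with the higher level differed between mature and immature leaves.

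Water channels of the vacuole membrane also went both ways. TIP1-1 (PH02Gene03621) fell to 60.5, 62.5 and 227 FPKM in mature libraries, against 496, 509 and 515 FPKM in immature libraries (log2 fold change -2.09 ± 0.48, adjusted p = 0.0053), and mature 3 lay between the other two and the immature libraries. TIP1-2 (PH02Gene34465) rose to 67.2, 84 and 32.9 FPKM, against 7.82, 8.75 and 9.67 FPKM (log2 fold change 2.86 ± 0.49, adjusted p = 0.00082). Of 27 aquaporin genes 3 rose and 5 fell (median -0.24). The clock protein GIGANTEA (PH02Gene29623) rose to 64.3, 61.6 and 98.1 FPKM, against 36.3, 37.2 and 40.3 FPKM (log2 fold change 1.02 ± 0.23, adjusted p = 0.0044), and of 56 light and clock genes 12 rose and 4 fell (median 0.20). With mature 3 left out 9 of these fell, with mature 1 or immature 1 left out 1 fell, with mature 2 or immature 2 left out 2 fell, while with the immature libraries summed 1 rose and 0 fell. The hour of sampling is not labelled. Of 112 cell cycle genes 18 (16.1%) rose and 23 (20.5%) fell (median 0.10), against 15.8% and 11.6% of all genes. Over the settings without 1 library 14 to 19 rose and 16 to 19 fell. The list summed to 252, 250 and 264 FPKM in mature 1, 2 and 3, against 292 to 301 FPKM in immature libraries. Against the direction of that sum, cyclin-B1-1 (PH02Gene37929), which drives entry into mitosis, rose to 21.2, 22.8 and 26.6 FPKM, against 7.31, 7.43 and 10.4 FPKM (log2 fold change 1.53 ± 0.22, adjusted p = 0.00026). Of 100 histone and replication genes 11 rose and 7 fell (median 0.03).

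The other lists held stress, regulatory and hormone genes. Among 63 genes that scavenge reactive oxygen 18 rose and 6 fell (median 0.20), and among 119 heat shock genes 11 rose and 14 fell (median 0.00). Multiprotein-bridging factor 1c (PH02Gene35916), a heat-responsive transcriptional coactivator in Arabidopsis, fell to 1.27, 3.65 and 0.411 FPKM in mature libraries, against 72.5, 69.7 and 70.7 FPKM in immature libraries (log2 fold change -5.22 ± 1.01, adjusted p = 0.0019). Of 123 WRKY genes 17 rose and 11 fell (median 0.26), of 102 NAC genes 11 rose and 8 fell (median 0.00), and of 105 ethylene response factors 10 rose and 8 fell (median 0.22). Of 142 auxin genes 15 rose and 11 fell (median 0.09), of 114 genes for gibberellin, cytokinin and brassinosteroid 13 rose and 17 fell (median 0.00), and of 158 for abscisic acid 20 rose and 13 fell (median -0.09). In the WRKY, NAC, ethylene response factor, auxin and abscisic acid lists both shares lay under those over all genes. Over the settings without 1 library several of these counts moved by more than 1.5 times, such as abscisic acid genes that fell, 12 to 30, and WRKY genes that fell, 5 to 15.

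Markers of cell types were measured beside these lists. Mesophyll markers summed to 2138, 2089 and 986 FPKM in mature 1, 2 and 3, against 837 to 865 FPKM in immature libraries, and of 23 tested 8 rose and 4 fell (median 0.74). Epidermis and guard cell markers summed to 150.5, 147 and 264 FPKM, against 124 to 127 FPKM, and of 35 tested 8 rose and 1 fell (median 0.00). The stomatal patterning relative EPIDERMAL PATTERNING FACTOR-like protein 2 (PH02Gene16990) had 0.158, 0.222 and 0.0669 FPKM in mature and 2.39, 1.46 and 3.02 FPKM in immature libraries (log2 fold change -3.75 ± 0.74, adjusted p = 0.0022). It fell, against the 8 epidermal markers that rose, and its level was low, at 3.02 FPKM or less in every library. Meristem markers summed to 655, 643 and 722 FPKM, against 736 to 765 FPKM, and of 52 tested 8 rose and 9 fell (median 0.00). Phloem markers summed to 67, 64 and 54 FPKM, against 60.7 to 64.9 FPKM, and of 9 tested 1 rose and 0 fell (median 0.01). By these sums mature 3 had the most epidermal and the least mesophyll signal of the mature libraries. The epidermal list as a whole did not follow its sum: 16, 12 and 15 of 35 genes lay above the immature mean in mature 1, 2 and 3. For mesophyll markers it was 14, 15 and 8 of 23. The mesophyll list includes chloroplast carbonic anhydrase, which was likewise lowest in mature 3 among the mature libraries. Of the listed markers 7 to 8 of 29 mesophyll, 12 to 14 of 38 epidermis, 19 to 31 of 63 meristem and 0 to 1 of 9 phloem genes were at 0 in mature libraries, against 6 to 8, 13 to 15, 30 to 32 and 2 in immature libraries. The part of such shifts in the results was not tested.

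The change with stage was then set against that of the typical plant, in other libraries, by a test of the difference between the 2 changes (the interaction). It was called for 6543 genes, 17.4% of those tested, with 4160 (11.1%) higher and 2383 (6.34%) lower in the variant's change. With limma on deposited FPKM, which changes both the test and the scaling, 2444 were higher and 4143 lower. Over 28779 genes the median shift of the interaction on FPKM against TMM-scaled counts was -0.15 log2 units. Without mature 3, 9941 genes were called, without mature 2, 4312, and with the variant immature libraries summed, 1201. In the typical plant itself 4956 genes rose (13.2%) and 6102 fell (16.2%) between the same stages. Of the 5924 genes that rose in the variant, 1690 also rose and 299 fell in the typical plant. The 1690 are 28.5% of the variant's and 34.1% of the typical plant's genes that rose. Of the 4351 that fell, 1888 also fell and 239 rose there, and the 1888 are 43.4% of the variant's and 30.9% of the typical plant's genes that fell.

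For wall and surface genes the interaction was called mostly as higher in the variant by edgeR on counts, and in both directions by limma on deposited FPKM. Of 111 secondary wall genes 60 fell and 2 rose in the typical plant, against 27 and 8 in the variant, and the interaction was called as higher in the variant for 46 and lower for 0. Of 105 wall growth genes it was higher for 43 and lower for 1, and of 227 wax, cutin and lipid transfer genes for 83 and 6. By limma on deposited FPKM the corresponding counts were 17 and 13, 9 and 6, and 35 and 12. Without mature 2, in which wall genes stayed closest to the immature level, they were 40 and 0, 20 and 1, and 55 and 6. With the variant immature libraries summed, 4, 5 and 17 genes of these lists were higher. Fasciclin-like arabinogalactan protein 1 (PH02Gene18743) changed by -2.55 ± 0.94 log2 units in the variant and -8.09 ± 1.23 in the typical plant (difference 5.55 ± 1.37, adjusted p = 0.014).

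Cytosolic ribosomal proteins differed the other way. Of 230 genes 85 fell and 15 rose in the typical plant, and the interaction was lower in the variant for 60 and higher for 4. Leaving out mature 1, 2 and 3 in turn gave 39, 39 and 88 lower, summing the variant immature libraries 19, and limma on deposited FPKM 76. Initiation factor 2 subunit beta (PH02Gene43891) changed by -1.63 ± 0.13 log2 units in the variant and -0.14 ± 0.13 in the typical plant (difference -1.49 ± 0.19, adjusted p = 0.00029). Glutamate dehydrogenase A-like (PH02Gene27470) changed by -2.97 ± 0.24 in the variant and 0.16 ± 0.23 in the typical plant (difference -3.14 ± 0.33, adjusted p = 0.00010). Both fell in the variant and were not called in the typical plant.

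Antenna genes differed upward: the interaction was higher in the variant for 11 and lower for 1 of 30, and without mature 3 for 23 and 0. Without mature 1 it was 5 and 0, without mature 2 4 and 0, and with the variant immature libraries summed 0 and 0. LHCII type 1 (PH02Gene45538) changed by -0.02 ± 0.48 log2 units in the variant and -2.28 ± 0.50 in the typical plant (difference 2.25 ± 0.69, adjusted p = 0.036). Rubisco activase large subunit (PH02Gene51123) changed by 5.45 ± 0.84 in the variant and -0.02 ± 0.68 in the typical plant (difference 5.47 ± 1.04, adjusted p = 0.0036). SENESCENCE-ASSOCIATED GENE 21 (PH02Gene40131) rose in both plants, by 0.92 ± 0.21 in the variant and 2.31 ± 0.22 in the typical plant (difference -1.39 ± 0.30, adjusted p = 0.0066).

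**Figure D5:**
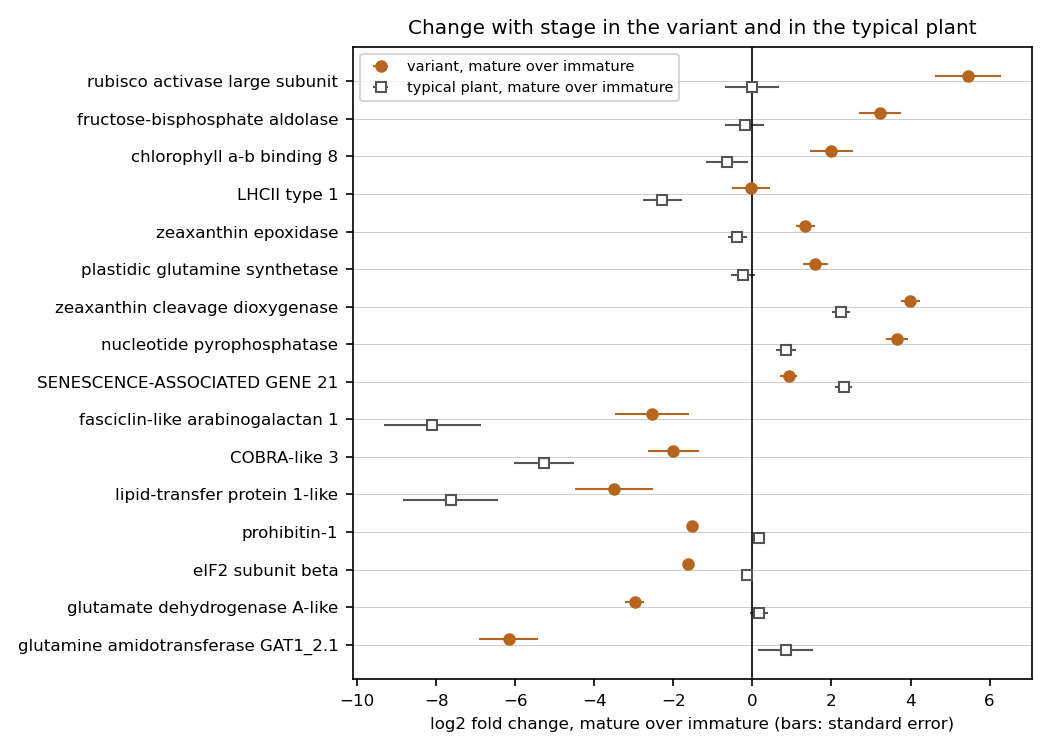
Log2 fold change of mature over immature leaves for 16 genes in the variant (filled circles) and in the typical plant (open squares). Bars are standard errors derived from the F statistic of the test. Photosynthesis genes at the top lie further right in the variant, wall genes further left in the typical plant, and prohibitin-1 and initiation factor 2 subunit beta lie below 0 in the variant and near 0 in the typical plant.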

How the data were processed

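RNA was copied into cDNA from an oligo(dT) primer with template switching (SMARTer), amplified by PCR and fragmented, per the labels' protocols. The protocol marks no strand, so overlapping and antisense genes cannot be told apart, and no molecular identifiers are described. The authors deposited 1 table with whole-number estimated counts and FPKM for 42520 genes in 18 libraries, and 41422 genes carry a description. Salmon, cutadapt and FastQC appear in the submitters' processing notes without version or order, and neither genome build nor annotation is given in the sources used here. FPKM were deposited by the authors per the file headers, and log2 values were computed here from the deposited values.

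Counts were fitted with edgeR 4.0.16 in R 4.3.3 as 6 group means over all 18 libraries (12 residual degrees of freedom), after TMM scaling and removal of 4925 genes by filterByExpr (minimum count 10, minimum total 15), and tested two-sided by quasi-likelihood with Benjamini-Hochberg adjustment over 37595 genes at 0.05. The fitting scripts were tested on simulated counts. Alternatives were DESeq2 1.42.0, limma 3.58.1 on log2(FPKM + 1) and log2(FPKM + 0.1), other filters and scaling, the 6 libraries alone, a replicate block, and each library left out.

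Genes to name were taken by a rule: among described, called genes with at least 10 FPKM on average in the higher group and groups that do not overlap, the 10 with the smallest p in each direction and, with counts in all 6 libraries, the 10 with the largest change. The rule adds up to 2 called genes per list and direction and the uncalled one with the highest level, and a fixed set of pigment genes. It gives 237 genes, of which the 82 described were picked after their values were seen, and 1 more rubisco gene was added in the same way. Genes given beside a described gene of the same enzyme or a related protein for comparison were also picked after their values were seen. The counts of described genes leave them out. The gene lists match words in the deposited descriptions. The comparison, the lists and the settings were chosen with earlier results of these data known.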

Additional observations from a re-analysis of the deposited data

Results flagged for a closer look

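The change from immature to mature leaves differed between the variant and the typical plant by a test of the difference itself for 6543 genes. Of the 83 genes described, 45 were among them, 35 higher and 10 lower in the variant's change, and all 45 kept their direction under every setting run. DESeq2 called all 45, limma on log2(FPKM + 1) called 29, and 12 were called with the variant immature libraries summed. All values that follow are differences of log2 fold changes, variant minus typical. A value above 0 does not by itself mean a rise or a higher level in the variant. GLK1 PH02Gene22330 changed by -0.05 in the variant and -1.71 in the typical plant. STAY-GREEN LIKE, at -1.74 and -3.11, and beta-galactosidase 6, at -2.37 and -3.65, fell in both.

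In photosynthesis the difference was 4.05 and 3.36 for the photosystem II 10 kDa polypeptide genes PH02Gene08265 and PH02Gene09620, and 1.30 for STN7. It was 1.78 for the chlorophyll a/b binding protein PH02Gene04237, 2.64 for chlorophyll a-b binding protein 8, 2.25 for LHCII type 1 and -1.91 for photosystem I chlorophyll a/b-binding protein 6. It was 5.47 for rubisco activase, 2.26 and 2.56 for the rubisco small subunit genes PH02Gene44479 and PH02Gene30282, 3.43 for the aldolase, 2.41 for carbonic anhydrase and 1.84 for plastidic glutamine synthetase.

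Among pigment genes and their regulators it was 1.83 for glutamyl-tRNA reductase 2, 1.37 for STAY-GREEN LIKE, 1.72 for zeaxanthin epoxidase and -0.82 for 15-cis-zeta-carotene isomerase. It was 1.75 for the cleavage dioxygenase PH02Gene22046 and 1.67 for GLK1 PH02Gene22330.

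Among wall and surface genes it was 5.25 for the xyloglucan endotransglycosylase, 3.28 for COBRA-like protein 3, and 4.70 and 5.55 for fasciclin-like arabinogalactan proteins 13 and 1. It was 1.28 for beta-galactosidase 6, 1.66 for 3-ketoacyl-CoA synthase 10, 4.13 for the lipid-transfer protein and -1.55 for the GDSL esterase/lipase.

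In metabolism, transport and defence it was 2.80 for the nucleotide pyrophosphatase, 1.91 for the AAE7-like ligase, 0.98 for the amino acid transporter, 1.63 for sucrose synthase, 0.92 for SWEET1b, 1.35 for inactive beta-amylase 9 and 2.75 for TIP1-2. It was 3.72 for (E)-beta-caryophyllene synthase, 1.91 for anthocyanidin reductase, 2.90 for lipoxygenase 2.3 and 4.50 for the trypsin inhibitor. Lower values were found for ORR1 (-1.11), prohibitin-1 (-1.71), initiation factor 2 subunit beta (-1.49), SENESCENCE-ASSOCIATED GENE 21 (-1.39), glutamate dehydrogenase (-3.14), multiprotein-bridging factor 1c (-5.58) and GAT1_2.1 (-7.00). Groups hold 3 libraries, so single libraries were not tested as outliers.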

How the results depend on the processing

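With the variant immature libraries summed to 1 library, which then is assumed to vary like the other groups, 2197 genes were called between the stages and 1201 in the interaction, against 10275 and 6543. Leaving out 1 library gave 7377 to 11668 genes between the stages and 4312 to 9941 in the interaction, where the lowest count came without variant mature 2 and the highest without variant mature 3. Under DESeq2 the counts were 12506 and 9280, under limma on log2(FPKM + 1) 12528 and 6587, without a filter 9718 and 6033, and with a mean CPM of at least 1 9909 and 6194. The 6 libraries alone gave 7169 between the stages and no interaction. Of the genes called higher or lower, 57.7% were higher between the stages, against 45.4% by limma on FPKM and 47.3% with the immature libraries summed; in the interaction it was 63.6%, against 37.1% by limma on FPKM.

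With the replicate number as a block, 9601 genes were called between the stages and 5500 in the interaction. Deviations of same-numbered libraries from their group means correlated at -0.007, 0.006 and -0.001. The immature libraries may differ too little among themselves for such values to tell whether the numbers pair libraries. The labels do not state a pairing. No libraries of these groups agreed within sampling noise, so summing on that ground was applied to none. Of the 78 counts per list and direction, 73 moved by more than 1.5 times with the immature libraries summed and 18 to 35 without 1 library. Of the 71 described genes that were called, 61 were called with each of the 6 libraries left out, 64 with the 6 libraries alone and 41 with the immature libraries summed, and none of them changed direction under any setting. The causes of these shifts were not tested. The small number of libraries, the spread of mature 3 and the unknown origin of the immature libraries limit the precision.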
